A study of Homo sapiens with 6 samples.

Results

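The receptor tyrosine kinases EGFR, ERBB2, ERBB3, MET and AXL and the ERBB ligands TGFA, HBEGF, AREG, EREG and NRG1 were taken by gene symbol from the table of gene expression values in HEY cells, a human ovarian cancer cell line. These are 10 of the 32679 genes in the table, 5 receptors and 5 ligands, and each symbol matched 1 gene. The cells carried either a control hairpin (shNC, genotype NC, treatment none, 3 samples) or a hairpin against the splicing factor PQBP1 (shPQBP1, PQBP1 knockdown, doxycycline at 1 µg per ml, 3 samples), and all 6 samples were labelled day 3. By these labels the hairpin and doxycycline differed together between the groups and cannot be told apart. The hairpin against PQBP1 was cloned into a lentiviral vector, and infected cells were selected with puromycin as a stable line. For its splicing counts in these cells the paper's supplement names a doxycycline treatment shorter than 3 days, and the labels are followed here. Values are FPKM, fragment numbers scaled to transcript length and library size, so that the levels of different genes are per length and can be set side by side. The question asked of these genes was whether growth factor receptors and their ligands differed in RNA level upon PQBP1 knockdown.

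ERBB receptors are cell surface kinases that form dimers when a ligand binds, and they pass the signal on to the RAS-ERK and PI3K-AKT pathways. TGFA, HBEGF and AREG are made as membrane-bound precursors and are released by metalloproteases, after which they can act on the cell that made them or on its neighbours, and EREG is made and released in the same way. MET is the receptor for hepatocyte growth factor and AXL is the receptor for GAS6, and in carcinoma cells either kinase can signal beside EGFR or replace it when EGFR is blocked.

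The promoters of the 4 ligands among the members that bind EGFR directly are shown because this set holds the only member that passed the test, TGFA, beside 3 ligands that did not. They are RefSeq sequences of build GRCh38.p14, from 250 bases before to 50 bases after the annotated start, read from 5′ to 3′ on the strand of the gene. The capitals mark the letters TATAAA (the TATA box), GGGCGG (the GC box bound by SP1) and TGACGTCA (the cyclic AMP response element), each searched on both strands. For TGFA the start shown is the outer of the pair of starts in the table. The windows are chr2:70553777-70554076 on the minus strand for TGFA, chr5:140346554-140346853 on the minus strand for HBEGF, chr4:74444886-74445185 on the plus strand for AREG and chr4:74364895-74365194 on the plus strand for EREG.
TGFA: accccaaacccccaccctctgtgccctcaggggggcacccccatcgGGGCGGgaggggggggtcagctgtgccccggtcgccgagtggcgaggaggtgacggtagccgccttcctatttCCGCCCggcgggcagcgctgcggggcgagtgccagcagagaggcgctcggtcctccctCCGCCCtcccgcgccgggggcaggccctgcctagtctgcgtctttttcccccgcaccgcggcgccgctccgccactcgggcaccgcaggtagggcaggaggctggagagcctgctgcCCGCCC
HBEGF: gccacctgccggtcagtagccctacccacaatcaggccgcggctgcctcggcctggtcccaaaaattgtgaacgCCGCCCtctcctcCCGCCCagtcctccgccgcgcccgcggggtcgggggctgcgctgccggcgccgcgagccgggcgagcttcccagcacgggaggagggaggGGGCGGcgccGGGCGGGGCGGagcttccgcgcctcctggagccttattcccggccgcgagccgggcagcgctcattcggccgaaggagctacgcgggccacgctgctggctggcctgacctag
AREG: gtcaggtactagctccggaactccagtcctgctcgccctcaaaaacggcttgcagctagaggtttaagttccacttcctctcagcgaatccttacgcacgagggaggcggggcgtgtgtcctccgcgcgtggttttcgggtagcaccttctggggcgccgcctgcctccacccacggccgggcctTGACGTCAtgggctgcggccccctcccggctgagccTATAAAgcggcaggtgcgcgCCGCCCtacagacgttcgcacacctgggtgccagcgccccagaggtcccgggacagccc
EREG: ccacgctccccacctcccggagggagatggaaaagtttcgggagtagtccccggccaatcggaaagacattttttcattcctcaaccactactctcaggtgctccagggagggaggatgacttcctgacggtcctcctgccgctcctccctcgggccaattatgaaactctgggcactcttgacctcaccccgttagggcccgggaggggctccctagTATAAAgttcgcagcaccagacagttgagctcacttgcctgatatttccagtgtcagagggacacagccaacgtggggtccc

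The windows of AREG and EREG each held 1 TATA box, starting 29 and 32 bases before the annotated start, and those of TGFA and HBEGF held none. GC boxes numbered 4 in TGFA, 5 in HBEGF, of which 2 overlap, 1 in AREG and 0 in EREG. The window of the other TGFA start, chr2:70553397-70553696, held 0 GC boxes and had a GC content of 63.0%, so the count for TGFA depends on the start chosen. AREG alone of these 4 windows held the cyclic AMP response element. Over all 35116 promoter windows of this length in the table, 11.5% held a TATA box, 45% (15786 windows) a GC box and 1.85% the cyclic AMP response element. The GC content of the windows was 75.3% for TGFA, 75.0% for HBEGF, 66.3% for AREG and 57.7% for EREG. A match of letters is a description of the sequence and not a mapped binding site.

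Before the members are described, the label of the knockdown and of the cells was checked. PQBP1 had 7.18, 6.67 and 6.93 FPKM in the shNC samples and 1.68, 1.72 and 1.44 FPKM in the shPQBP1 samples, as the labels state. KRT8 and KRT18, the keratins of simple epithelia, lay between 52.76 and 94.56 FPKM in the 6 samples, and overlapped between the groups. KRT19, a further epithelial keratin, was higher without overlap (log2 fold change 0.40, adjusted p = 0.218 from limma). In the epithelial markers EPCAM and CLDN4, with means below 1 FPKM, the groups overlapped. Their log2 fold changes were -0.20 and -0.41 (adjusted p = 0.628 and 0.423 from limma with all genes above 0 tested). The 0.1 FPKM added before the logarithm damps such low values, and the ratios of their group means were 0.859 and 0.409. VIM, the intermediate filament of mesenchymal cells, lay between 1111.87 and 1226.58 FPKM in the shNC samples and between 1271.71 and 1342.76 FPKM in the shPQBP1 samples, and ZEB1, a transcription factor of the same list, between 2.94 and 6.15 and between 6.31 and 9.76 FPKM. Both were higher without overlap (log2 fold changes 0.14 and 0.84, adjusted p = 0.217 and 0.157 from limma), and their part in the values of the members was not tested. In CDH2 and TWIST1, the other markers of that list, the groups overlapped (log2 fold changes 0.13 and 0.087, adjusted p = 0.357 and 0.783 from limma). CDH1, the epithelial cadherin, was at most 0.06 FPKM, and MUC16, the serous ovarian antigen CA-125, was at most 0.01 FPKM. The leukocyte marker PTPRC was listed at 0 in every sample. Genes with a mean of at least 1 FPKM were tested, 11413 in all, on log2(FPKM + 0.1) with limma, two-sided, with Benjamini-Hochberg adjustment over all of them. The depth of the samples is unknown, since FPKM values carry no counts. The series' design text calls the samples of a group biological triplicates, and their spread is the error used throughout. Sample shNC 1 stood apart, with a correlation of 0.926 to 0.955 with the other samples across genes (log2 values), where the other pairs lay between 0.956 and 0.969.

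Upon PQBP1 knockdown, TGFA was the member that rose past the adjusted threshold, by 1.69-fold. Of the 10 members, 7 had a mean of at least 1 FPKM and were tested, namely EGFR, ERBB2, MET, AXL, TGFA, HBEGF and AREG, and 3 did not, namely ERBB3, EREG and NRG1. At an adjusted p under 0.05, 1 of the 7 was called, where 2.91% of all tested genes were (1.73% higher and 1.18% lower). Without adjustment, 4 of the 7 differed at a p under 0.05, TGFA and MET higher and ERBB2 and AXL lower, where 23.6% of all tested genes did (11.9% higher and 11.7% lower). In the same 4 genes the samples of the groups did not overlap, as in 34.4% of all tested genes (17.3% higher and 17.1% lower). More than 2-fold differences at an unadjusted p under 0.05, the size and p named in the study's methods, were found in 0 of the 7 by limma, against 1.52% of all tested genes (0.973% higher and 0.543% lower). The median log2 fold change of the 7 tested members was -0.014, beside 0.021 for all tested genes.

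**Figure D1:**
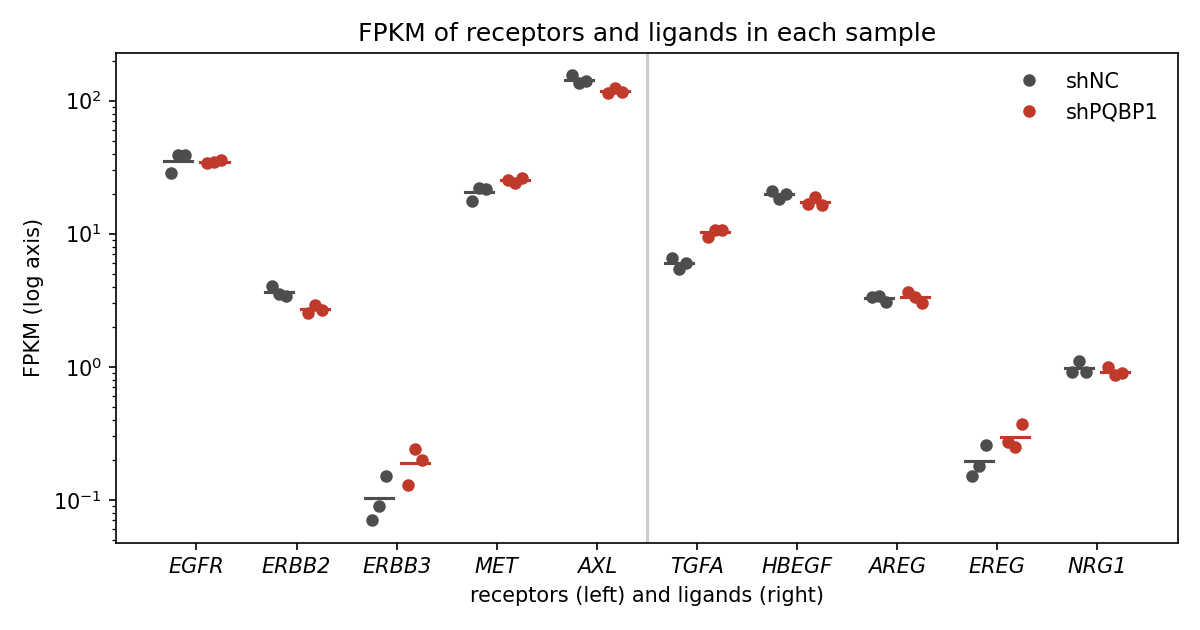
FPKM on a log axis of the 5 receptors and 5 ligands in each of the 3 shNC and 3 shPQBP1 samples, with points for samples and lines for group means. AXL lies highest at 114.61 to 155.26 FPKM and ERBB3 lowest at 0.07 to 0.24 FPKM, and the points of the groups separate in TGFA, MET, ERBB2 and AXL.

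Among the ligands, TGFA, transforming growth factor alpha, binds EGFR and is a gene of chromosome 2 (hg38, positions 70447284 to 70554193, minus strand, ENSG00000163235). It had 6.57, 5.41 and 6.04 FPKM in the shNC samples and 9.38, 10.71 and 10.58 FPKM in the shPQBP1 samples. The lowest shPQBP1 value was above the highest shNC value. The group means were 6.01 ± 0.581 FPKM and 10.2 ± 0.733 FPKM (SD, n = 3 each). On the log2 scale limma put the rise at 0.76 (standard error 0.11, 95% interval 0.50 to 1.01, adjusted p = 0.0241). An exact permutation test of the 6 values, two-sided, cannot go below p = 0.1 with 3 samples a group and gave that value. The size of the rise stayed between 0.69 and 0.83 on the log2 scale with each sample left out in turn, but the adjusted p was 0.0217 without shNC 1 and between 0.0675 and 0.12 without any of the others, so the call was kept in 1 of these 6 fits. With the trend on GC content and length taken out of each sample, the rise of TGFA was 0.72 and stayed past the threshold (adjusted p = 0.015 from limma). Over all alternatives the adjusted p of TGFA ran from 0.015 to 0.195.

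HBEGF, the heparin-binding EGF-like growth factor that binds EGFR and ERBB4, had the highest level of the ligands. It had 21.05, 18.10 and 20.04 FPKM in the shNC samples and 16.86, 18.88 and 16.54 FPKM in the shPQBP1 samples. The groups overlapped, since shPQBP1 2 lay above shNC 2. For HBEGF the log2 fold change came to -0.18 (95% interval -0.41 to 0.051, adjusted p = 0.293 from limma), and to -0.0998 once the trend on GC content and length was taken out. AREG, amphiregulin, a ligand of EGFR, had 3.36, 3.43 and 3.08 FPKM in the shNC samples and 3.66, 3.34 and 3.00 FPKM in the shPQBP1 samples, ranges that overlapped throughout. Its log2 fold change was 0.015 (95% interval -0.25 to 0.28, adjusted p = 0.94 from limma), and its sign turned under other scalings of the values, with -0.00033 under median-of-ratios scaling and -0.032 under quantile normalization. These intervals leave room for a change of up to the size of their bounds and do not show equal levels.

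EREG and NRG1 were below the limit of 1 FPKM. EREG, epiregulin, a ligand of EGFR and ERBB4, had 0.15, 0.18 and 0.26 FPKM in the shNC samples and 0.27, 0.25 and 0.37 FPKM in the shPQBP1 samples, and shPQBP1 2 lay just below shNC 3. With all 30717 genes above 0 in at least 1 sample tested, its log2 fold change was 0.42 (95% interval -0.20 to 1.05, adjusted p = 0.524 from limma). The 0.1 FPKM added before the logarithm damps this value, and the ratio of the group means of EREG was 1.51. NRG1, neuregulin 1, binds ERBB3 and ERBB4 and had 0.92, 1.10 and 0.92 FPKM in the shNC samples and 1.00, 0.86 and 0.89 FPKM in the shPQBP1 samples. The groups overlapped, and in the same fit the log2 fold change was -0.085 (95% interval -0.47 to 0.30, adjusted p = 0.808 from limma).

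Among the 4 members that bind EGFR, the share of TGFA and HBEGF differed between the groups while the sum of the 4 overlapped. BTC, EGF and EPGN, which also bind EGFR and are no members, were left out of this sum. The summed FPKM of TGFA, HBEGF, AREG and EREG was 31.1, 27.1 and 29.4 in the shNC samples and 30.2, 33.2 and 30.5 in the shPQBP1 samples. TGFA made up 21.1%, 19.9% and 20.5% of that sum in the shNC samples and 31.1%, 32.3% and 34.7% in the shPQBP1 samples. HBEGF made up 67.6%, 66.7% and 68.1% in the shNC samples and 55.9%, 56.9% and 54.2% in the shPQBP1 samples. HBEGF thus remained the most abundant of the 4 in every sample, and the ratio of TGFA to HBEGF went from 0.304 ± 0.00702 to 0.588 ± 0.0453 (SD, n = 3 each). AREG held between 9.84% and 12.6% of the sum and EREG between 0.482% and 1.21%, and for either gene the groups overlapped. These shares are a description and rest on the same values as the fold changes.

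**Figure D2:**
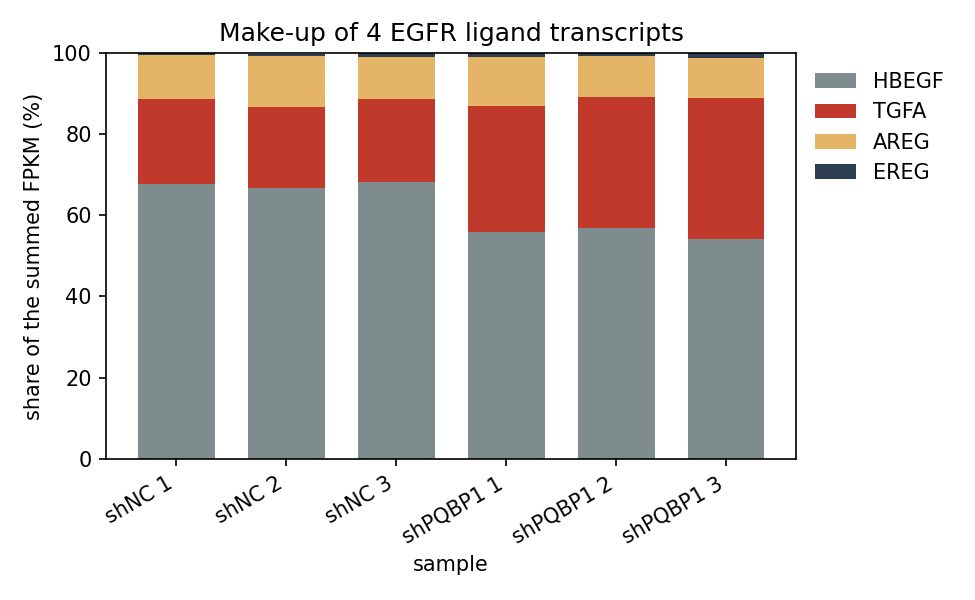
Share of the summed FPKM of HBEGF, TGFA, AREG and EREG held by each, in percent, in the 3 shNC and 3 shPQBP1 samples, 1 bar a sample. The TGFA part is 19.9% to 21.1% in the shNC bars and 31.1% to 34.7% in the shPQBP1 bars, and the HBEGF part is smaller in each shPQBP1 bar than in each shNC bar.

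Among the ERBB receptors, EGFR, the receptor of these 4 ligands, lies on chromosome 7 from 55019017 to 55211628 (ENSG00000146648). It had 28.74, 38.88 and 38.82 FPKM in the shNC samples and 33.96, 34.69 and 35.73 FPKM in the shPQBP1 samples. The 3 shPQBP1 values lay within the range of the shNC values, with shNC 1 below them and shNC 2 and 3 above. By limma EGFR had a log2 fold change of -0.014 (standard error 0.13, 95% interval -0.33 to 0.30, adjusted p = 0.951). Without shNC 1 it was -0.16 (adjusted p = 0.147 from limma). Its sign turned without shNC 2 (0.058), without shNC 3 (0.057) and without shPQBP1 1 (0.0028). The size and sign thus rest on single libraries, but no call was made either way.

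ERBB2, the receptor with no known ligand of its own that pairs with the other ERBB receptors, lies on chromosome 17 from 39687914 to 39730426 (ENSG00000141736). It had 4.05, 3.50 and 3.43 FPKM in the shNC samples and 2.54, 2.91 and 2.67 FPKM in the shPQBP1 samples. The 3 shPQBP1 values of ERBB2 all lay under the 3 shNC values (exact permutation p = 0.1, again the lowest possible). By limma the difference was -0.42 on the log2 scale (standard error 0.11, 95% interval -0.68 to -0.16, adjusted p = 0.0979), which did not pass the adjusted threshold. With GC content and length taken into account the value was -0.25 (adjusted p = 0.0632 from limma). Annotated exons of ERBB2 share 571 bases with those of MIEN1 and 144 bases with those of PGAP3, both on the opposite strand. The sources do not state whether reads were assigned by strand. PGAP3 lay between 0.88 and 1.06 FPKM in the 6 samples. MIEN1 had 9.25, 7.69 and 7.25 FPKM in the shNC samples and 6.65, 7.34 and 6.39 FPKM in the shPQBP1 samples, and the part of shared reads in the ERBB2 values was not tested.

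ERBB3, which binds neuregulins and has little kinase activity of its own, was the member with the lowest level. It had 0.07, 0.09 and 0.15 FPKM in the shNC samples and 0.13, 0.24 and 0.20 FPKM in the shPQBP1 samples, and shPQBP1 1 lay below shNC 3. With all genes above 0 in at least 1 sample tested, its log2 fold change was 0.51 (95% interval -0.13 to 1.15, adjusted p = 0.451 from limma). At these levels the 2 decimals of the deposited values are a sizeable part of the value itself. The 0.1 FPKM added before the logarithm is as large as some of the values, so that 0.51 understates the change. The ratio of the group means was 1.84.

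The remaining receptors, MET and AXL, differed in opposite directions, and neither passed the adjusted threshold. MET, the receptor for hepatocyte growth factor, on chromosome 7 from 116672196 to 116798377 (ENSG00000105976), had 17.71, 22.03 and 21.83 FPKM in the shNC samples and 25.27, 24.02 and 26.32 FPKM in the shPQBP1 samples. The groups of MET did not overlap, with the shPQBP1 samples higher. By limma the difference was 0.30 on the log2 scale (standard error 0.11, 95% interval 0.041 to 0.56, adjusted p = 0.168). Without shNC 1, the lowest sample, it was 0.20, and with GC content and length taken into account it was 0.21.

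AXL, the receptor for GAS6, on chromosome 19 from 41219223 to 41261766 (ENSG00000167601), had 155.26, 136.67 and 140.69 FPKM in the shNC samples and 114.61, 124.31 and 116.91 FPKM in the shPQBP1 samples. The groups of AXL did not overlap either, with the shPQBP1 samples lower. By limma the difference was -0.28 on the log2 scale (standard error 0.076, 95% interval -0.46 to -0.097, adjusted p = 0.106). The adjusted p of AXL passed the threshold under quantile normalization (log2 fold change -0.27, adjusted p = 0.0456 from limma) and once GC content and length were taken into account (-0.20, adjusted p = 0.0326). Over the alternatives it ran from 0.0326 to 0.306. The ratio of AXL to MET within a sample was 8.77, 6.20 and 6.44 in the shNC samples and 4.54, 5.18 and 4.44 in the shPQBP1 samples, so that AXL stayed the more abundant transcript in all 6. Exons of AXL share 67 bases with the antisense gene ENSG00000269652, which had at most 3.18 FPKM.

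**Figure D3:**
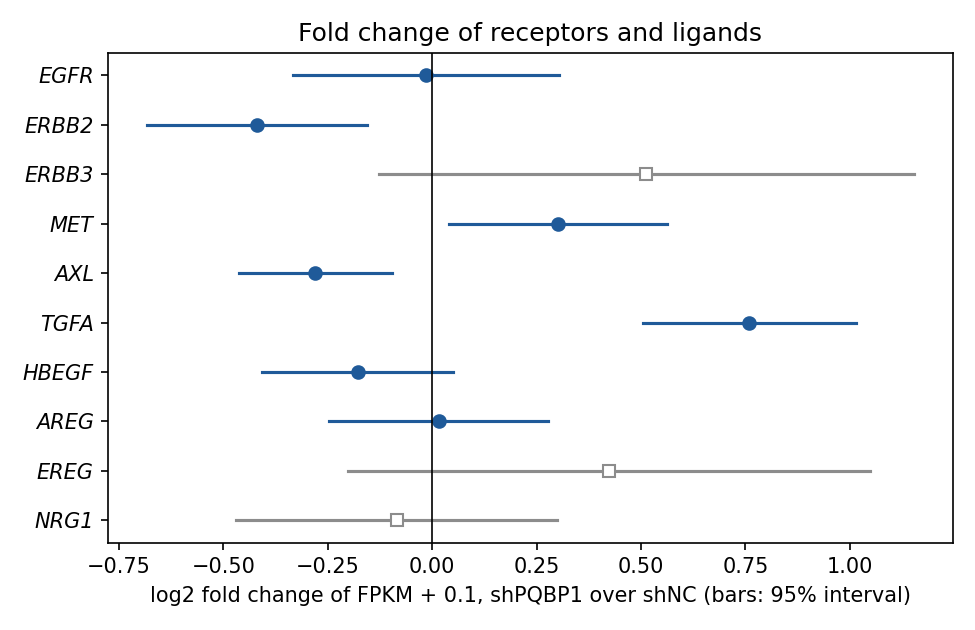
Log2 fold change of FPKM + 0.1, shPQBP1 over shNC, with 95% intervals from limma, for the 5 receptors and 5 ligands. Filled blue circles are the 7 genes with a mean of at least 1 FPKM and open grey squares the 3 genes below it, fitted with all genes above 0. TGFA lies at 0.76, and the intervals of EGFR, HBEGF and AREG and of the 3 low genes cross 0.

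In the order of levels, AXL was the highest member in the shNC samples at 144.2 ± 9.78 FPKM (SD, n = 3), 4.06 times EGFR. EGFR at 35.5 ± 5.84 FPKM, MET at 20.5 ± 2.44, HBEGF at 19.7 ± 1.5, TGFA at 6.01, ERBB2 at 3.66, AREG at 3.29, NRG1 at 0.98, EREG at 0.197 and ERBB3 at 0.103 FPKM followed. The ranges of MET and HBEGF overlapped, as did those of ERBB2 and AREG and those of EREG and ERBB3. In the shPQBP1 samples AXL was 3.41 times EGFR, and the order was the same except that AREG at 3.33 FPKM stood above ERBB2 at 2.71 FPKM. No neighbours in that order had overlapping ranges there. MET then stood at 1.45 times HBEGF, against 1.04 times in the shNC samples. The ligand levels therefore spanned from 0.15 to 21.05 FPKM, and the receptor levels from 0.07 to 155.26 FPKM.

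The log2 fold changes of all tested genes followed the GC content of their transcripts (Spearman's rho = -0.459 over 11385 genes, all measured in the same 6 libraries, as a description). The deviation of a sample from the median of all 6 had a rho with GC content of 0.637 in shNC 1 and of -0.456 in shPQBP1 1. The canonical transcripts of TGFA and MET had a GC content of 44.5% and 43.5%, below the median of 47.5% for the tested genes, and those of AXL and ERBB2 had 53.9% and 60.4%. Genes within 2 percentage points of TGFA had a median log2 fold change of 0.070, and genes as near to MET had 0.095. Genes within 2 percentage points of AXL had a median of -0.089, and genes as near to ERBB2 had -0.14. In each of these 4 genes the change had the sign of the median of genes of like GC content. The 4 genes are those with an unadjusted p under 0.05 by limma, and these medians come without a spread. Whether their changes went beyond those of genes of like GC content was therefore not tested. The corrected values above remove the trend on GC content and length.

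**Figure D4:**
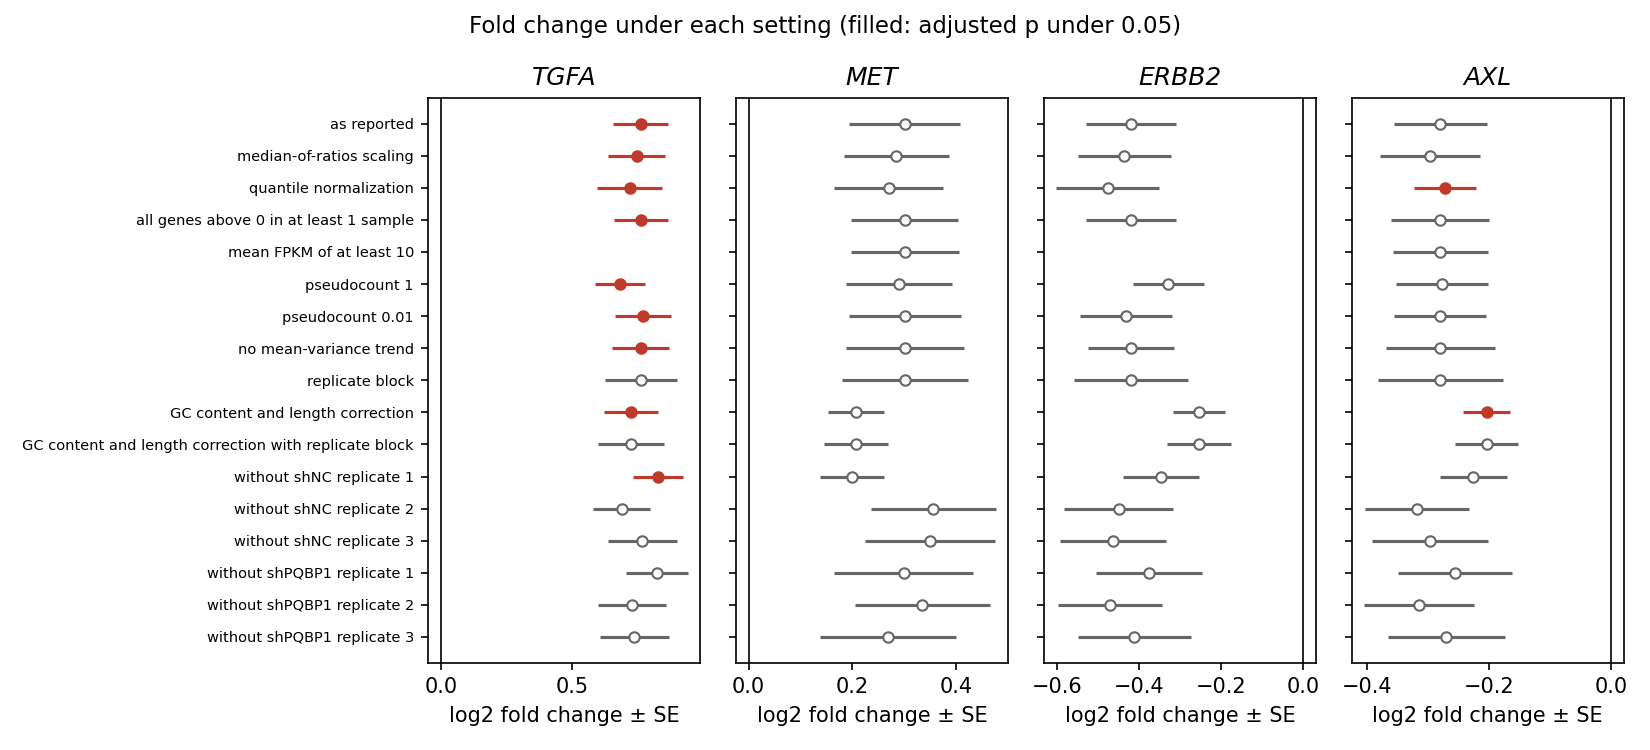
Log2 fold change with its standard error for TGFA, MET, ERBB2 and AXL under the fit as reported and each alternative, 1 row a setting, with filled red points where the adjusted p was under 0.05. No point crosses 0. TGFA is filled in the fit as reported and is open under either fit with the replicate block and in 5 of the 6 fits that leave a sample out, and AXL is filled under quantile normalization and the correction for GC content and length. TGFA and ERBB2 have no value at a mean of at least 10 FPKM.

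The other genes of the pathway were counted in 8 lists, of which 93 genes were in the table and 75 were tested. At an adjusted p under 0.05, 0 of the 75 were higher and 1 was lower, beside 1.73% and 1.18% of all tested genes. Without adjustment, 9 were higher and 11 lower at a p under 0.05, beside 11.9% and 11.7% of all tested genes. The median log2 fold change of the 75 was 0.084. The other ERBB receptors and ligands (ERBB4, EGF, BTC, EPGN, NRG2, NRG3 and NRG4) were all below 1 FPKM on average, with NRG3 listed at 0 in every sample. BTC, betacellulin, had the widest range of these, from 0.51 to 1.14 FPKM.

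In the HGF and MET list, HGF, the ligand of MET, was listed at 0 in every sample, and 3 of the 10 genes were tested, with a median log2 fold change of -0.33. None of the 3 was called by limma. CD44 and PLXNB2, 2 of the 3, were lower at an unadjusted p under 0.05, as were 11.7% of all tested genes. PLXNB2, a plexin that can associate with MET, is named after its values were seen, and its groups did not overlap (log2 fold change -0.33, adjusted p = 0.106). Its transcript had a GC content of 63.1%, above the median of 47.5% for the tested genes, and its value here is not corrected for that. CD44, a surface glycoprotein that can act as a co-receptor of MET, had 33.7 ± 4.95 and 26.6 ± 2.45 FPKM in the shNC and shPQBP1 samples (SD, n = 3 each), or -0.33 on the log2 scale (adjusted p = 0.203). SPINT2, an inhibitor of the proteases that activate HGF, had a log2 fold change of -0.088, which turned to 0.055 once GC content and length were taken into account.

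In the list of TAM receptors and ligands, the family of AXL, 3 of the 4 genes were tested and 2 of them, GAS6 and PROS1, were higher at an unadjusted p under 0.05, as were 11.9% of all tested genes. GAS6, the ligand of AXL, which is named here after its values were seen, had 12.53, 11.89 and 11.37 FPKM in the shNC samples and 14.76, 16.26 and 16.26 FPKM in the shPQBP1 samples. Every shPQBP1 sample was above every shNC sample, and limma gave 0.40 on the log2 scale (adjusted p = 0.0592). GAS6 passed the adjusted threshold without shNC 1, at 0.0461, among genes with a mean of at least 10 FPKM, at 0.0452, and with GC content and length taken into account, at 0.0124 with a log2 fold change of 0.62, and its adjusted p ran from 0.0124 to 0.27 over the alternatives. Its exons share 421 bases with the antisense gene GAS6-AS1, which had at most 1.20 FPKM. PROS1, protein S, the other ligand of the family, had 3.40 ± 0.755 and 4.71 ± 0.311 FPKM, or a difference of 0.48 on the log2 scale (adjusted p = 0.175), which was 0.29 without shNC 1 and 0.28 with GC content and length taken into account. TYRO3, a receptor of the family, had 1.87 ± 0.166 and 1.69 ± 0.115 FPKM, or -0.14 on the log2 scale and -0.083 without shNC 1. The receptor AXL and its ligand GAS6 thus had values in opposite directions, neither past the adjusted threshold.

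In the list of ligand shedding, all 9 genes were tested, and FURIN, the proprotein convertase that matures ADAM proteases, fell past the adjusted threshold. FURIN lay between 9.34 and 10.32 FPKM in the shNC samples and had 6.07, 7.36 and 6.31 FPKM in the shPQBP1 samples, ranges that did not overlap. The fall was -0.58 on the log2 scale (standard error 0.10, adjusted p = 0.041), and with each sample left out in turn it lay between -0.67 and -0.53 with an adjusted p between 0.0592 and 0.167. By limma the adjusted p of FURIN was 0.0777 with all genes above 0 tested and 0.216 with the replicate block. It ran from 0.036 to 0.216 over the alternatives. ADAM17, the main protease that releases TGFA, HBEGF and AREG, had 5.89, 5.52 and 5.93 FPKM in the shNC samples and 6.15, 6.05 and 5.62 FPKM in the shPQBP1 samples, ranges that overlapped (log2 fold change 0.038, adjusted p = 0.785 from limma). ADAM17 and the genes that follow are named after their values were seen. FRMD8, RHBDF1 and RHBDF2, cofactors that carry ADAM17 to the cell surface, had log2 fold changes of -0.99, -0.16 and -0.38, with adjusted p from 0.166 to 0.30. FRMD8 had 7.78, 7.22 and 6.83 FPKM in the shNC samples and 4.52, 5.76 and 1.79 FPKM in the shPQBP1 samples, so that the size of its value (standard error 0.41) leans on shPQBP1 3. The proteases ADAM10, ADAM9 and ADAM15 had values in the other direction, 0.53, 0.48 and 0.24 on the log2 scale with adjusted p from 0.28 to 0.36, and in each the groups overlapped. ADAM10 and ADAM9 were lowest in shNC 1, at 3.31 and 13.25 FPKM. The 5 genes of this list whose groups did not overlap, FURIN, FRMD8, RHBDF1, RHBDF2 and ADAM12, were all lower in the shPQBP1 samples, where 17.1% of all tested genes were lower without overlap. The transcripts of FURIN, FRMD8, RHBDF1 and RHBDF2 had a GC content of 61.1% to 62.9%, above the median of 47.5% for the tested genes, and that of ADAM12 had 47.0%. With GC content and length taken into account FURIN was at -0.40 (adjusted p = 0.036 from limma). The median log2 fold change of the list, without that correction, was -0.16.

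In the 4 remaining lists no gene had an adjusted p under 0.05 by limma, and the number with an unadjusted p under 0.05 was 4 of 19 adaptors, 5 of 16 receptor inhibitors and phosphatases, 3 of 9 RAS-ERK feedback genes and 0 of 16 genes of receptor endocytosis, where it was 23.6% of all tested genes. Among the adaptors the lowest value was that of GRB2, which links the receptors to RAS, with 36.9 ± 4.18 and 29.3 ± 0.405 FPKM, or -0.33 on the log2 scale (adjusted p = 0.123). GRB2 passed the threshold with GC content and length taken into account, at -0.26 (adjusted p = 0.0299). The highest was that of PIK3R2, a regulatory subunit of PI3K, at 1.52 with a standard error of 1.70, and between 0.65 and 3.06 with each sample left out in turn, as its FPKM jumped between samples of the same group. Among the inhibitors, CBL, the ubiquitin ligase of activated receptors, had the highest value at 0.99 with a standard error of 0.70, since shNC 3 had 1.05 FPKM and the other 5 samples 6.61 to 7.95 FPKM. Without shNC 3 the value of CBL was 0.12, and its exons share 509 bases with MCAM on the opposite strand. MCAM had 10.38, 9.37 and 9.65 FPKM in the shNC samples and 5.95, 6.29 and 6.28 FPKM in the shPQBP1 samples. The part of shared reads in the CBL values was not tested. SH3KBP1, an adaptor of CBL, had the lowest at -0.30 (adjusted p = 0.275 from limma), and -0.19 without shPQBP1 3. Of the feedback genes, the ERK phosphatase DUSP4 had 7.13 ± 0.643 and 9.02 ± 0.563 FPKM, or 0.34 on the log2 scale (adjusted p = 0.126), and it too passed with GC content and length taken into account, at 0.37 (adjusted p = 0.0353). DUSP6, another ERK phosphatase, had -0.21 (adjusted p = 0.475 from limma), and between -0.37 without shNC 1 and -0.11 without shNC 3. In receptor endocytosis, the sorting proteins STAM2 and HGS had 0.45 and -0.23 (adjusted p = 0.248 and 0.222 from limma). STAM2 was at 0.23 without shNC 1, and with GC content and length taken into account STAM2 was at 0.15 and HGS at -0.023.

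**Figure D5:**
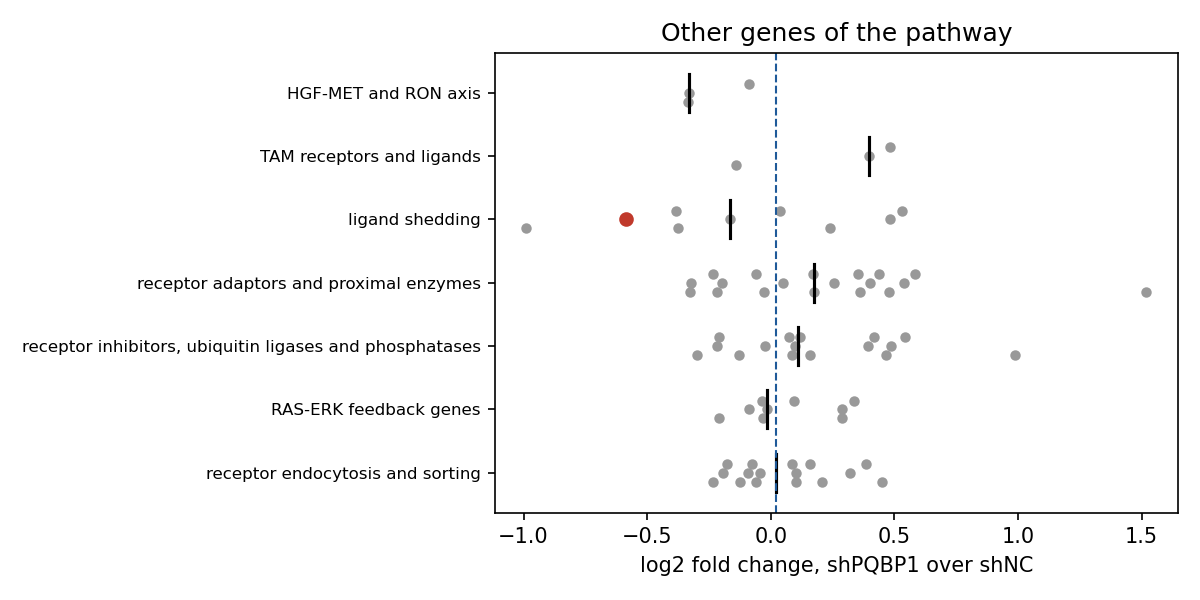
Log2 fold change, shPQBP1 over shNC, of the 75 tested genes of the pathway by list, 1 point a gene, with black bars for list medians and a dashed line at the median of all tested genes, 0.021. FURIN, in red at -0.58, is the point with an adjusted p under 0.05, and no gene of the other ERBB receptors and ligands was high enough to be tested.

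The genes whose profile was most like that of TGFA over the 6 samples were found among all tested genes by the root mean square distance of log2 values, each centred on its own mean. The nearest was GNG11, a G protein gamma subunit, at a distance of 0.0341, with 11.79, 9.04 and 10.30 FPKM in the shNC samples and 15.98, 18.73 and 18.52 FPKM in the shPQBP1 samples. CGNL1, a junction protein, followed at 0.0452 with 0.797 and 1.38 FPKM as group means. In both genes shNC 2 was the lowest shNC sample and shPQBP1 1 the lowest shPQBP1 sample, as in TGFA. Both were chosen by their distance from TGFA over these same samples, so a like order follows from the choice.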

How the data were processed

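Poly(A) RNA of 3 shNC and 3 shPQBP1 HEY samples was read from both ends on an Illumina sequencer. Alignment to hg38 was done by the authors with HISAT2 2.2.0 and sorting with SAMtools 1.9, and they reconstructed transcripts with StringTie 1.3.0. The annotation release is not given in the sources used here. The deposited values are FPKM per gene and sample, as rounded by the authors to 2 decimals. The same table holds the authors' fold changes, p-values and q-values from a count-based test, which were not used. Low values of 722 to 859 genes of 1 exon were searched for steps of whole fragments over a range of trial depths. The largest mean vector length was 0.19 to 0.256 by sample, where 1 means that every value lies on a step. No level for values without steps was computed, so no depth was taken from this search and the depth is unknown.

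Genes with a mean of at least 1 FPKM were tested on log2(FPKM + 0.1), a scale that understates the change of low genes, with limma (version 3.58.1, R version 4.3.3) with a mean-variance trend, and single genes also with an exact permutation test (scipy version 1.17.1). The other alternatives are given in the closing section. The GC correction removed from each sample the trend on GC content and log length of the canonical transcript (spline of 5 degrees of freedom for each, annotation GENCODE 44 on hg38), which also gave the positions. Promoters were found for 8 of the 10 members in the RefSeq table. Named genes are the members, PQBP1, in each list the genes past an adjusted p of 0.05 or else the largest rise and fall, and the 3 profiles nearest to TGFA (1 of them is not reported here), and further genes were named after their values were seen. The members and lists were chosen with earlier results of these data known. The fits were tested on simulated data.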

Additional observations from a re-analysis of the deposited data

How the results depend on the processing

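The sign of the log2 fold change of TGFA, MET, ERBB2, AXL, HBEGF and PQBP1 was the same under every alternative that gave a value. The number of members past an adjusted p of 0.05 was 1 as reported, 2 under quantile normalization and with the GC content and length correction (TGFA and AXL), and 0 at a mean of at least 10 FPKM, where TGFA was not tested. It lay between 0 and 1 with each sample left out in turn, and the number past a fold change of 2 was 0 in all fits. The adjusted p of AXL under quantile normalization and with the GC content and length correction went with log2 fold changes of -0.27 and -0.20. Quantile normalization called 417 of all 11413 tested genes and that correction 938 of 11385, where the fit as reported called 332 of 11413. At a mean of at least 10 FPKM, 211 of 3661 were called. The log2 fold change of TGFA lay between 0.69 and 0.83 with each sample left out, that of EGFR between -0.16 and 0.058, that of AREG between -0.053 and 0.087 and that of PQBP1 between -2.08 and -1.96. AREG had -0.00033 under median-of-ratios scaling and -0.032 under quantile normalization, and SPINT2 had 0.055 after the GC content and length correction, with or without the block, and between -0.18 and 0.088 with each sample left out. Calls in the pathway lists numbered 1 as reported, 0 with all genes above 0 tested, 9 with the GC content and length correction and 0 to 2 with each sample left out. Over all tested genes the calls in these fits were 332 of 11413, 190 of 30717, 938 of 11385, and 30 to 464 of 11413. The cause of these moves was not tested.

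The replicate numbers were not taken as pairs, since same-numbered samples had correlated deviations of -0.186, -0.138 and -0.0114. With the replicate block the number of all genes called went from 332 to 0, the members called to 0 and the list calls to 0. The log2 fold change with this block was 0.76 for TGFA (adjusted p = 0.195 from limma) and -2.04 for PQBP1 (adjusted p = 0.0686 from limma). With the GC correction and the replicate block together the calls were again 0 among members and 0 in the lists, TGFA had 0.72 (adjusted p = 0.112 from limma) and PQBP1 -1.86 (adjusted p = 0.0543 from limma). Over all tested genes the GC correction alone raised the calls to 938 (21 with the block), while testing all genes above 0 gave 190 and testing at a mean of at least 10 FPKM gave 211, and they lay between 30 and 464 with each sample left out.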

Other observations

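The adaptor PIK3R2 had 0.31, 8.71 and 0.21 FPKM in the shNC samples and 6.41, 9.78 and 0.31 FPKM in the shPQBP1 samples. The annotated gene ENSG00000268173 on the same strand shares 3942 exon bases with it and had 5.26, 0.04 and 4.58 FPKM in the shNC samples and 0, 0 and 4.22 FPKM in the shPQBP1 samples. Its value was high in the 3 samples in which PIK3R2 was low and near 0 in the 3 in which PIK3R2 was high, a pattern chosen after the values were seen. None of the 10 receptors and ligands had such a jump between samples of a group at 1 FPKM or more, the widest range relative to its level being that of EGFR, from 28.74 to 38.88 FPKM in the shNC samples.

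The summed FPKM of the leukocyte markers found in the table was at most 0.15 and that of the fibroblast markers at most 0.74. The endothelial markers did not go one way. CDH5, above the limit of 1 FPKM, had 2.11, 2.96 and 2.49 FPKM in the shNC samples and 3.10, 3.55 and 3.64 FPKM in the shPQBP1 samples. It was higher without overlap (log2 fold change 0.44, adjusted p = 0.151 from limma). PECAM1 had 0.24, 0.23 and 0.25 FPKM in the shNC samples and 0.02, 0.03 and 0.06 FPKM in the shPQBP1 samples. It was lower without overlap (log2 fold change -1.33, adjusted p = 0.0628 from limma with all genes above 0 tested). VWF was at most 0.04 FPKM. PAX8, a transcription factor of Müllerian epithelium, had 15.70, 14.89 and 12.33 FPKM in the shNC samples and 18.41, 24.08 and 19.79 FPKM in the shPQBP1 samples (log2 fold change 0.53, adjusted p = 0.102 from limma). The other markers of its list did not go one way. SOX17 had group means of 1.09 and 1.77 FPKM (log2 fold change 0.68, adjusted p = 0.108 from limma), and WT1, below the limit of 1 FPKM, had 0.63, 0.71 and 0.68 FPKM in the shNC samples and 0.31, 0.34 and 0.45 FPKM in the shPQBP1 samples (log2 fold change -0.74, adjusted p = 0.212 from limma with all genes above 0 tested).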
